A study of Mus musculus with 8 samples.

Results

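Genes of the interleukin 10 (IL-10) axis and of the SOCS feedback loop, 10 in all, were followed in J774A.1 cells, a mouse macrophage line, treated with lipopolysaccharide (LPS) alone or with LPS and ursodeoxycholic acid (UDCA). The 10 genes were chosen by name for their place in this pathway, out of 55487 genes listed: the cytokine gene Il10, the receptor genes Il10ra, Il10rb and Il4ra, the kinase gene Jak2, the feedback genes Socs1, Socs2, Socs3 and Cish, and the kinase gene Pim1. The LPS group held 4 libraries from cells given LPS (1 μg/mL) for 24 h, and the LPS + UDCA group held 4 libraries from cells given LPS (1 μg/mL) and UDCA (1 mM) for 24 h. LPS, from the outer membrane of Gram-negative bacteria, triggers the inflammatory response of macrophages through TLR4. UDCA is a bile acid used as a drug in cholestatic liver disease. LPS is common to both groups, so every difference described here is a difference under LPS, and libraries of cells without LPS were not analysed here. All libraries come from 1 cell line, and the labels do not say whether they come from separate cultures, so the p-values measure the spread between libraries, which may be technical.

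IL-10 is a cytokine that macrophages secrete late in the response to LPS and that restrains further inflammatory gene expression. It binds a receptor made of the ligand-binding chain IL-10Rα (Il10ra) and the shared chain IL-10Rβ (Il10rb), which activates the kinases JAK1 and TYK2 and the transcription factor STAT3. SOCS proteins are made in response to JAK-STAT signaling and switch it off, by blocking JAK kinases or receptors and by directing them to ubiquitin ligases.

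Expression was measured as TPM, the share of a library's transcripts that a gene takes after reads are divided by gene length, so levels of different genes can be compared. Differences were tested with limma on log2(TPM + 1), and a log2 fold change is the difference of group means on that scale, LPS + UDCA over LPS and comes out smaller than the ratio of TPM where a gene is low. In what follows, rose and fell are used of genes with an adjusted p under 0.05 from limma, with Benjamini-Hochberg adjustment over 11796 genes, and called is used of genes that also passed a fold change of 2. The deposited TPM summed to 973190 to 977485 per LPS library and to 958918 to 962737 per LPS + UDCA library, without overlap. The sequencing depth is unknown because TPM keeps no read numbers. Of 8 macrophage markers, all were above 1 TPM on average, and the list was split, as 3 rose and 5 fell. Those that rose were Fcgr1 (log2 fold change 1.48), Adgre1 (1.27) and Spi1 (0.19). Those that fell were Itgam (-2.91), Lyz2 (-2.19), Cd68 (-1.39), Csf1r (-1.35) and Cd14 (-0.39). Against 0.082 for all genes tested, the median log2 fold change of the 8 markers was -0.87. Their summed level, to which Lyz2, Cd14 and Cd68 gave most, was 4218 to 4454 TPM with LPS and 2052 to 2312 TPM with LPS + UDCA. Of 19 markers of other cell types, 17 were under 1 TPM in every library and 6 of these were listed at 0 throughout. The exceptions were S100a8 and S100a9, and the summed level of this list was 19.9 to 26.5 TPM with LPS and 2.81 to 9.40 TPM with LPS + UDCA. The part of these marker differences in the results was not tested. In bulk RNA, fewer cells that express a gene and less RNA per cell cannot be told apart.

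The RefSeq promoter window of Socs3 is shown because Socs3 had the lowest fold change of the 10 genes and because Socs genes are textbook STAT targets. The RefSeq table for GRCm38.p6 held promoters of 6 of the 10 genes (7 start sites), namely Il4ra, Cish, Socs3, Socs1, Pim1 and Jak2. The 250 bases before each RefSeq start were searched for the STAT palindromes TTCNNNGAA and TTCNNNNGAA, which read the same on both strands. The first was found in 1 of the 7 windows, that of Socs3, and in 7.02% of all 32851 windows of that length. The second was found in 0 of the 7 windows and in 5.85% of all windows. In the GENCODE M21 annotation, Socs3 begins farther upstream, at 117970047 on the minus strand, so its window lies inside the annotated gene. The windows of Cish and of the downstream Pim1 start also lie inside their genes. Those of Il4ra and of the upstream Pim1 start do so in part. These counts therefore hold for the RefSeq starts only. The window of Socs3 is chr11:117969367-117969616, on the minus strand, written 5′ to 3′ with the match in capitals:
Socs3: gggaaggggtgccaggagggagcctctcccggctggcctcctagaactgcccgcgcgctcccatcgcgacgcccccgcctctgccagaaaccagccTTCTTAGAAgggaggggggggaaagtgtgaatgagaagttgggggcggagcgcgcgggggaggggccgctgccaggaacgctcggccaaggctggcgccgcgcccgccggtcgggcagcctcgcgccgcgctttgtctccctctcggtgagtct
The match, TTCTTAGAA, lies at chr11:117969512-117969520 and begins 154 bases before the RefSeq start. It is a match of letters and was not tested as a binding site.

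Il10 and Socs3 fell most with UDCA, by 5.93-fold and 7.87-fold in mean TPM, while Jak2 and Il10rb were higher and Pim1 differed little. Of the 9 genes tested, 2 were called lower (Il10, Socs3) and 1 was called higher (Jak2), where 8.44% and 8.71% of all genes tested were called lower and higher. Without the fold change minimum, 5 fell (Il10, Il10ra, Il4ra, Socs1, Socs3) and 3 rose (Il10rb, Pim1, Jak2), where 32.3% and 40.2% of all genes tested did. The same 5 and 3 genes had libraries that did not overlap between the groups, as did 29.9% and 37.0% of all genes tested in each direction. Differences of either direction were thus common among all genes, and the size is given for each member below. For each of the 8 genes without overlap, the exact permutation test over the 70 arrangements of the libraries gave a 2-sided p of 0.029, the smallest that 4 against 4 libraries allow. Socs2 had a mean of 0.543 TPM, under the minimum of 1 TPM, and was not tested by limma. Cish passed that minimum only through the LPS + UDCA libraries.

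**Figure D1:**
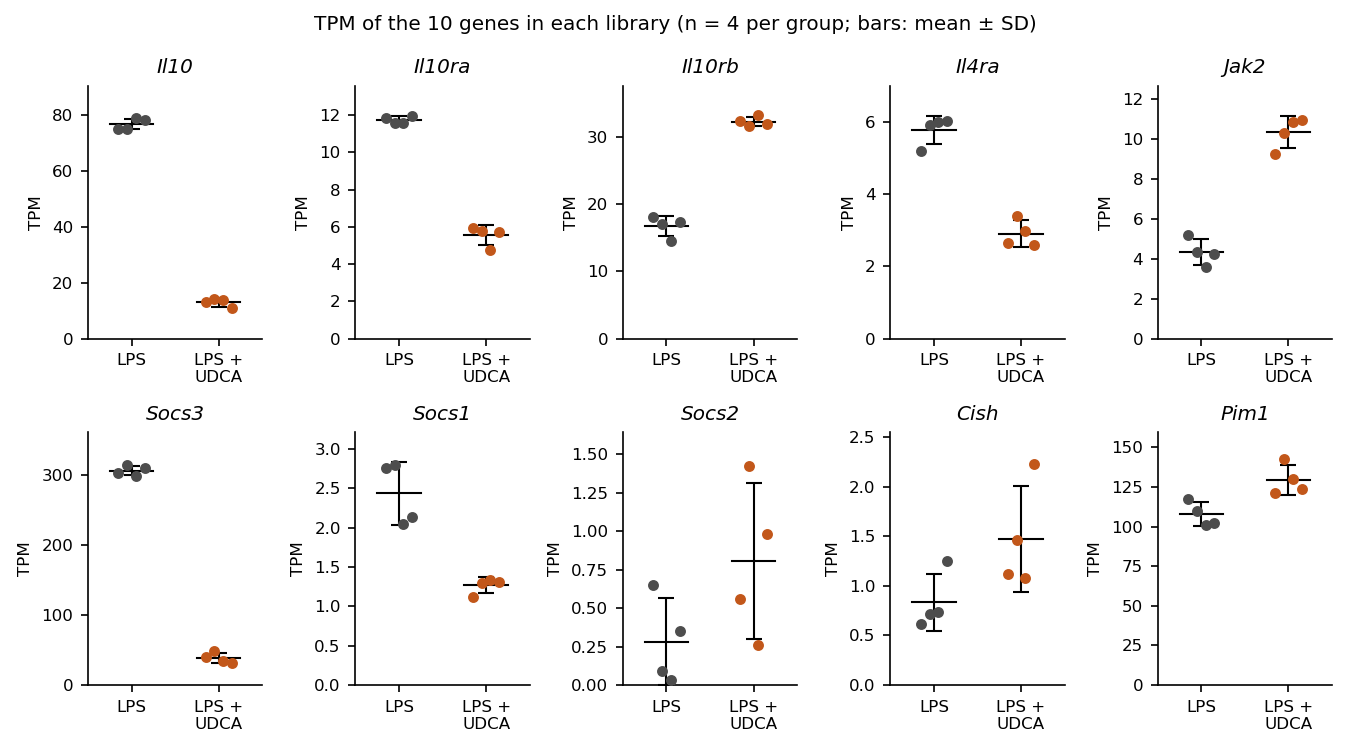
TPM (vertical axes, from 0) of each of the 10 genes in the 4 LPS and the 4 LPS + UDCA libraries, with 1 point per library and bars for the mean ± SD. The points of Il10 and Socs3 lie far apart between the groups, whereas those of Socs2 and Cish overlap.

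Il10 (ENSMUSG00000016529) encodes the cytokine itself and lies on chromosome 1 from 131019845 to 131024974 of GRCm38. Il10 was listed at 74.98, 75.05, 78.64 and 78.05 TPM in the LPS libraries, and the LPS + UDCA libraries had 13.11, 14.18, 13.64 and 10.75 TPM (replicates 1 to 4 of each group, here and for the other genes). All LPS + UDCA libraries were far below all LPS libraries, and LPS + UDCA replicate 4 was the lowest. The mean dropped from 76.7 ± 1.94 to 12.9 ± 1.51 TPM (SD, n = 4). The log2 fold change was -2.49 (95% interval -2.66 to -2.31, adjusted p = 1.4e-08 from limma), which ranked 90 from the lowest among the 11796 genes. No annotated gene overlaps Il10, and 0% of its 31-base words occur in transcripts of another gene.

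Of the IL-10 receptor, the ligand-binding chain and the shared chain went in opposite directions. Il10ra (ENSMUSG00000032089), on chromosome 9 from 45253837 to 45269149, had 11.88, 11.60, 11.57 and 11.98 TPM with LPS and 5.95, 5.77, 4.78 and 5.73 TPM with LPS + UDCA. It fell without overlap, with a log2 fold change of -0.96 (95% interval -1.13 to -0.80, adjusted p = 2.8e-06 from limma). Its mean TPM was 2.12-fold lower with UDCA, so the call at a fold change of 2 depended on the pseudocount, and with 0.1 TPM in place of 1 TPM added, Il10ra was called at -1.07. Il10rb (ENSMUSG00000022969), on chromosome 16 from 91406164 to 91425834, also serves as a chain of receptors for related cytokines. It had 18.09, 17.03, 14.54 and 17.34 TPM with LPS and 32.43, 31.68, 33.28 and 31.96 TPM with LPS + UDCA. It rose without overlap, from 16.8 ± 1.54 to 32.3 ± 0.700 TPM (log2 fold change 0.91, 95% interval 0.76 to 1.06, adjusted p = 2.2e-06 from limma). The gene model Gm21970 overlaps Il10rb on its strand and was listed at 0 TPM in all 8 libraries. Of the 31-base words of Il10rb, 14.9% occur in transcripts of another gene, as do 11.5% for Pim1, 10.4% for Cish, 8.86% for Il4ra and 6.55% for Socs2, so reads of these 5 genes could in part have been shared in the counting.

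To set partners or relatives against each other within a library, 6 log2 ratios of TPM + 1 were compared by the exact permutation test. The added 1 TPM makes these ratios depend somewhat on the scaling and on the pseudocount, and with 0.1 TPM added the difference for Socs3 to Socs1, for example, was -2.11 in place of -2.37. The ratio of Il10ra to Il10rb was 0.657 to 0.796 in the LPS libraries and 0.144 to 0.183 in the LPS + UDCA libraries. On the scale of log2(TPM + 1) it was lower by 1.88 with UDCA, from -0.47 ± 0.11 to -2.35 ± 0.15 (SD, n = 4, exact permutation p = 0.029, 0.034 after Benjamini-Hochberg adjustment over the 6 ratios). The ligand-binding chain was thus below the shared chain in all 8 libraries, and further below it in each of the 4 LPS + UDCA libraries.

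**Figure D2:**
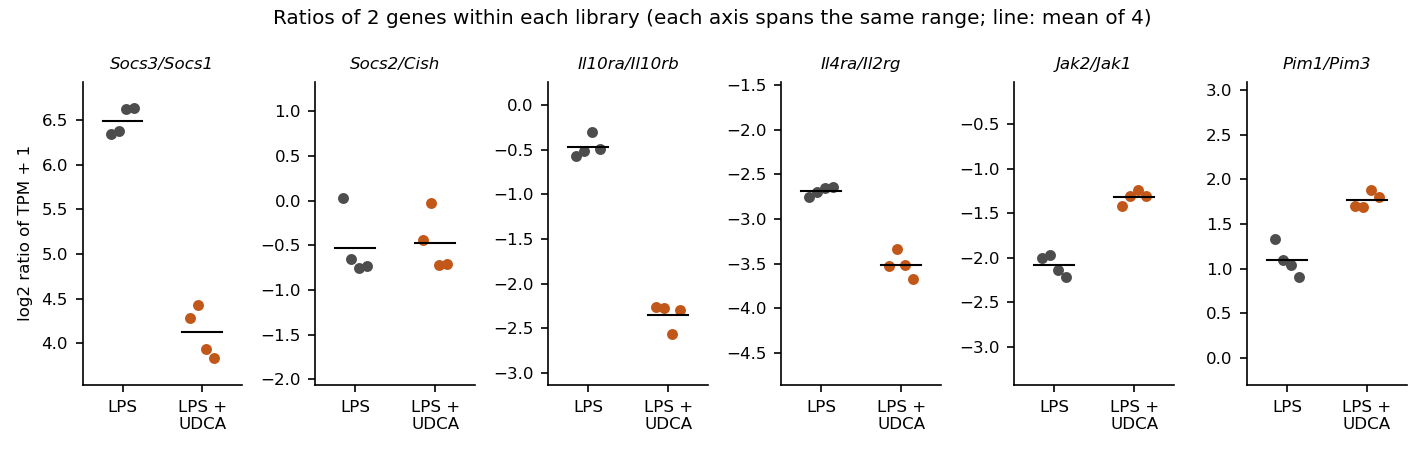
Log2 ratio of TPM + 1 of 2 genes within each library (vertical axes, all spanning the same range), with 1 point per library and a line at the mean of 4. The groups are separated in 5 of the 6 ratios, by -2.37 for Socs3/Socs1 and -1.88 for Il10ra/Il10rb, and overlap for Socs2/Cish.

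Il4ra (ENSMUSG00000030748) encodes a chain of the receptors for IL-4 and IL-13, which polarize macrophages toward the alternative state, and is itself raised by IL-10. It lies on chromosome 7 from 125552120 to 125579474. It had 5.21, 5.93, 6 and 6.03 TPM with LPS and 2.64, 3.40, 2.99 and 2.58 TPM with LPS + UDCA. The groups did not overlap, and Il4ra fell with a log2 fold change of -0.80 (95% interval -1.02 to -0.59, adjusted p = 5.1e-05 from limma), short of the fold change minimum on this scale. Its partner Il2rg, the common gamma chain, had 42.6 ± 1.34 and 43.4 ± 1.78 TPM (SD, n = 4) in libraries that overlapped (log2 fold change 0.02, 95% interval -0.08 to 0.13), although 28.7% of its 31-base words occur in another gene. The log2 ratio of Il4ra to Il2rg was lower by 0.83 with UDCA (exact permutation p = 0.029, 0.034 after adjustment over the 6 ratios).

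Jak2 (ENSMUSG00000024789) encodes a kinase of cytokine receptors that is a target of SOCS1 and SOCS3, and it was the member that rose most. It lies on chromosome 19 from 29251828 to 29313080. It had 5.18, 4.34, 3.59 and 4.24 TPM with LPS and 9.25, 10.32, 10.86 and 10.95 TPM with LPS + UDCA. The lowest LPS + UDCA library was above the highest LPS library, and the log2 fold change was 1.09 (95% interval 0.87 to 1.32, adjusted p = 9.7e-06 from limma). With quantile normalization the log2 fold change was 0.999, just under the fold change minimum. Jak1, the kinase bound by IL-10Rα, had 21.5 ± 2.29 and 27.3 ± 0.915 TPM (SD, n = 4, log2 fold change 0.33). Jak2 changed more than Jak1, as the log2 ratio of Jak2 to Jak1 was higher by 0.76 with UDCA (exact permutation p = 0.029, 0.034 after adjustment over the 6 ratios), though Jak1 remained above Jak2 in all 8 libraries.

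**Figure D3:**
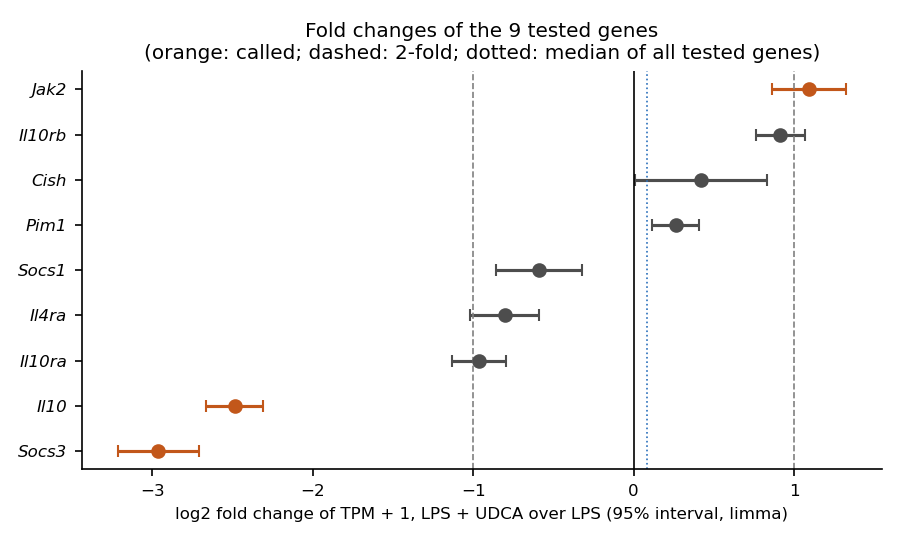
Log2 fold change of TPM + 1, LPS + UDCA over LPS (horizontal axis), with the 95% interval from limma, for the 9 members that were tested. Il10 and Socs3 lie below -2, Jak2 lies just above 1, and the 3 called genes are drawn in orange. The dotted line is the median of all genes tested, 0.082.

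Socs3 (ENSMUSG00000053113) encodes the inhibitor that binds JAK kinases and the gp130 receptor chain, and is a standard target of STAT3. It lies on chromosome 11 from 117966079 to 117970047. Socs3 was listed at 302.72, 313.96, 299.18 and 309.64 TPM with LPS and at 40.37, 48.70, 34.83 and 31.87 TPM with LPS + UDCA. The groups were far apart, and within the LPS + UDCA group replicate 2 was highest and replicate 4 lowest, as for Il10 and Il4ra. The means were 306 ± 6.67 and 38.9 ± 7.40 TPM (SD, n = 4), so the SD was 2.18% of the mean with LPS and 19.0% with LPS + UDCA. The log2 fold change was -2.96 (95% interval -3.21 to -2.71, adjusted p = 3.9e-08 from limma), which ranked 38 from the lowest among the 11796 genes. No annotated gene overlaps Socs3, and 0% of its 31-base words occur in another gene.

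Socs1, Socs2 and Cish were expressed at far lower levels than Socs3. Socs1 (ENSMUSG00000038037), which encodes an inhibitor of JAK kinases best known for limiting interferon signaling, lies on chromosome 16 from 10782240 to 10785536. It had 2.75, 2.80, 2.05 and 2.13 TPM with LPS and 1.12, 1.30, 1.34 and 1.31 TPM with LPS + UDCA. It fell without overlap, with a log2 fold change of -0.59 (95% interval -0.86 to -0.32, adjusted p = 1.5e-03 from limma). In linear TPM its mean was 1.92-fold lower with UDCA. Socs3 changed more than Socs1, since the log2 ratio of Socs3 to Socs1 was lower by 2.37 with UDCA (exact permutation p = 0.029, 0.034 after adjustment over the 6 ratios). Per length, Socs3 transcripts outnumbered Socs1 transcripts by 110 to 146 to 1 in the LPS libraries and by 24.3 to 37.5 to 1 in the LPS + UDCA libraries.

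Socs2 and Cish encode inhibitors that are targets of STAT5 and act on growth factor receptors, and both were low, with Socs2 at 0.03 TPM in 1 library of a table that keeps 2 decimals. Socs2 (ENSMUSG00000020027), on chromosome 10 from 95385362 to 95417180, had 0.65, 0.09, 0.03 and 0.35 TPM with LPS and 0.56, 1.42, 0.26 and 0.98 TPM with LPS + UDCA, and the groups overlapped (exact permutation p = 0.14). Cish (ENSMUSG00000032578), on chromosome 9 from 107296026 to 107302784, had 0.62, 0.72, 0.74 and 1.25 TPM with LPS and 1.12, 1.46, 1.08 and 2.23 TPM with LPS + UDCA. Its groups overlapped as well, with LPS replicate 4 above 2 of the LPS + UDCA libraries. The log2 fold change of Cish was 0.42 (95% interval 0.01 to 0.83, adjusted p = 0.063 from limma), and with 0.1 TPM added in place of 1 TPM it was 0.74 (adjusted p = 0.061 from limma). The added 1 TPM narrows the interval of a gene this low. The log2 ratio of Socs2 to Cish differed by 0.06 between the groups (exact permutation p = 0.80), and its sign was not stable. It was 0.24 without LPS replicate 1, -0.02 without LPS replicate 3, -0.01 without LPS replicate 4, -0.09 without LPS + UDCA replicate 2 and 0.65 with 0.1 TPM added.

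Set within the family of 8 SOCS genes (Socs1 to Socs7 and Cish), the fall of Socs3 changed the total. The summed level was 329 to 344 TPM with LPS and 73.7 to 88.5 TPM with LPS + UDCA. Socs3 held 89.1% to 91.2% of the sum in the LPS libraries and 42.6% to 55.0% in the LPS + UDCA libraries. Without Socs3, the other SOCS genes summed to 29.5 to 37.1 TPM with LPS and to 38.8 to 43.0 TPM with LPS + UDCA, and the groups did not overlap. Of these, Socs4 rose from 2.71 ± 0.323 to 5.14 ± 0.409 TPM (log2 fold change 0.73), Socs5 from 8.12 ± 0.522 to 10.3 ± 0.635 TPM (0.31) and Socs6 from 11.2 ± 1.56 to 14.4 ± 0.559 TPM (0.34), while Socs7 had 6.87 ± 0.690 and 7.23 ± 0.233 TPM in libraries that overlapped (SD, n = 4). The mean share of each SOCS gene other than Socs3 was higher with UDCA, but with Socs3 left out of the sum, an alternative chosen after seeing the data, the differences in share were -4.39 percentage points for Socs1 and -3.37 percentage points for Socs7.

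**Figure D4:**
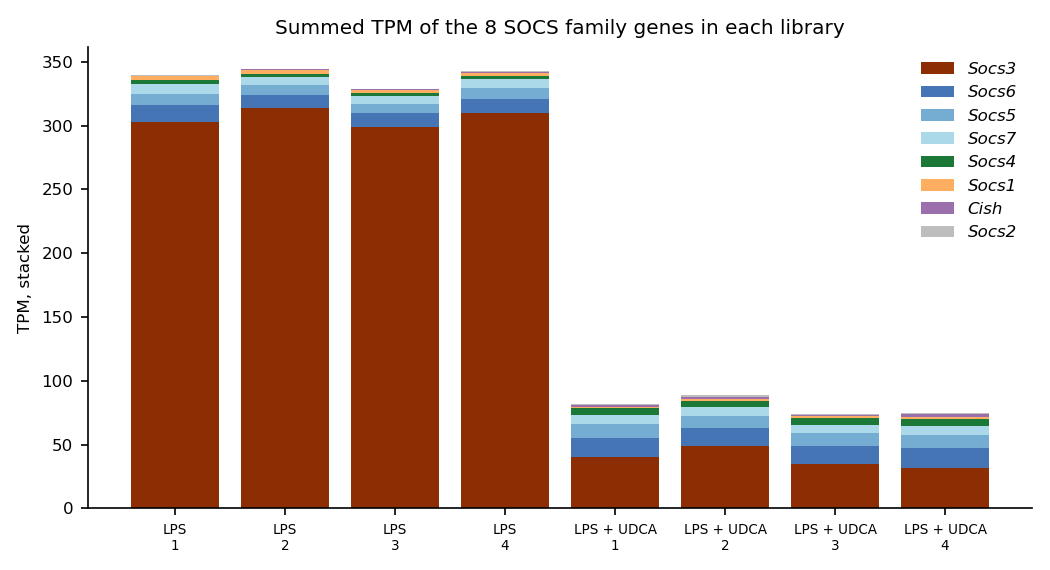
TPM of the 8 SOCS family genes stacked for each library (vertical axis, from 0), for LPS replicates 1 to 4 and LPS + UDCA replicates 1 to 4. Socs3 makes up most of each LPS bar, and the LPS + UDCA bars reach 73.7 to 88.5 TPM in all.

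Pim1 (ENSMUSG00000024014) encodes a serine/threonine kinase that is induced by STAT3 and STAT5 and promotes survival, and it did not follow Socs3. It lies on chromosome 17 from 29490753 to 29496112. It had 117.30, 110.03, 100.83 and 102.46 TPM with LPS and 121.39, 142.72, 129.71 and 123.87 TPM with LPS + UDCA. The lowest LPS + UDCA library was above the highest LPS library by a small margin, and Pim1 rose with a log2 fold change of 0.26 (95% interval 0.12 to 0.41, adjusted p = 4.9e-03 from limma). The antisense gene Gm26885 overlaps Pim1 and was listed at 5.73 to 6.76 TPM with LPS and at 6.51 to 11.97 TPM with LPS + UDCA, and whether the counting used the strand is not given in the sources used here. The relatives Pim2 and Pim3 both fell, Pim2 from 63.3 ± 1.40 to 39.6 ± 4.09 TPM (log2 fold change -0.67) and Pim3 from 49.9 ± 3.46 to 37.4 ± 4.28 TPM (-0.41). The log2 ratio of Pim1 to Pim3 was higher by 0.67 with UDCA (exact permutation p = 0.029, 0.034 after adjustment over the 6 ratios).

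In order of level, Socs3 led the 10 genes with LPS, followed by Pim1, Il10, Il10rb, Il10ra, Il4ra, Jak2, Socs1, Cish and Socs2, and in this order only the neighbors Cish and Socs2 overlapped. With LPS + UDCA, Pim1 led, followed by Socs3 and Il10rb, whose libraries overlapped, then Il10 and Jak2, which overlapped as well. Il10ra and Il4ra followed without overlap, and Cish, Socs1 and Socs2 at the end could not be ordered beyond their spread.

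The surroundings of the 10 genes were described by lists of other pathway genes, whose median log2 fold change is read beside the median of 0.082 over all genes tested. Their counts are read beside the shares of all genes tested, of which 8.71% were called higher and 8.44% lower, and 40.2% rose and 32.3% fell without the fold change minimum. Of 11 receptor partners and STATs, 0 were called, 3 rose and 4 fell without the fold change minimum (median -0.09). Among these, Stat3, the transcription factor of the IL-10 receptor, rose from 37.5 ± 2.49 to 48.0 ± 3.49 TPM (SD, n = 4, log2 fold change 0.35), and was named after its values were seen. Of the 8 genes of the other SOCS members and the SOCS box ubiquitin ligase, 0 were called, 5 rose and 1 fell (median 0.33). Of 13 other negative regulators of JAK-STAT signaling, Pias1 was called higher (10.2 ± 0.825 to 22.5 ± 1.02 TPM, log2 fold change 1.07), and Sh2b3, which encodes an adaptor that restrains JAK2, was called lower (47.7 ± 4.41 to 20.2 ± 1.96 TPM, -1.20).

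Genes known to be induced by IL-10 in macrophages did not move as 1 group, since of the 12 tested 3 were called higher and 2 lower (median 0.11). Il1rn, which encodes the IL-1 receptor antagonist, and Cdkn2d, which encodes a cell cycle inhibitor, were called lower. Il1rn had 1244 to 1299 TPM with LPS and 117 to 127 TPM with LPS + UDCA (log2 fold change -3.37), and Cdkn2d had 45.1 ± 3.33 and 8.23 ± 0.880 TPM (SD, n = 4, -2.32). Hmox1, which encodes heme oxygenase and is also an NRF2 target, rose from 2526 ± 33.9 to 7653 ± 134 TPM (1.60), Fcgr1, an Fc receptor gene also used here as a macrophage marker, by 1.48 on the log2 scale, and Ddit4, a stress-induced inhibitor of mTORC1, by 1.28. Of 17 genes induced by IL-4 and STAT6, 10 were under 1 TPM in every library, and 5 were tested. The transcription factor genes Egr2 (4.09 ± 0.686 to 0.458 ± 0.207 TPM, log2 fold change -1.80) and Irf4 (2.90 ± 0.296 to 0.535 ± 0.0480 TPM, -1.34) were called lower, and 0 were called higher. Both passed the minimum of 1 TPM only through the LPS libraries where they are high, and with a minimum of 1 TPM in every library they were not tested. Ccl22, a chemokine gene, rose from 5.10 ± 0.336 to 7.58 ± 0.385 TPM (SD, n = 4, log2 fold change 0.49). The other 2 genes of this list reached 1 TPM in some library but were too low on average to be tested. Both were higher with UDCA. Tgm2, which encodes a transglutaminase, had 0.04 to 0.24 TPM with LPS and 1.29 to 1.39 TPM with LPS + UDCA. Arg1, which encodes arginase 1, had 0 TPM in every LPS library and 0.12 to 1.15 TPM with LPS + UDCA. Ccl22, Tgm2 and Arg1 were named after their values were seen. None of the 11 other cytokines and receptors of these families, Il4 and Il13 included, reached 1 TPM in any library, and 7 of them were listed at 0 throughout.

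Among 21 regulators of Il10 transcription or mRNA, 16 were tested, and only Cebpb was called (median -0.13). Cebpb, which encodes a transcription factor that acts on the Il10 promoter, had 60.1 to 161 TPM with LPS and 35.1 to 55.0 TPM with LPS + UDCA (log2 fold change -1.24), a wide spread among the LPS libraries. Without the fold change minimum, 5 of the 16 rose and 6 fell, near the shares of all genes tested.

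**Figure D5:**
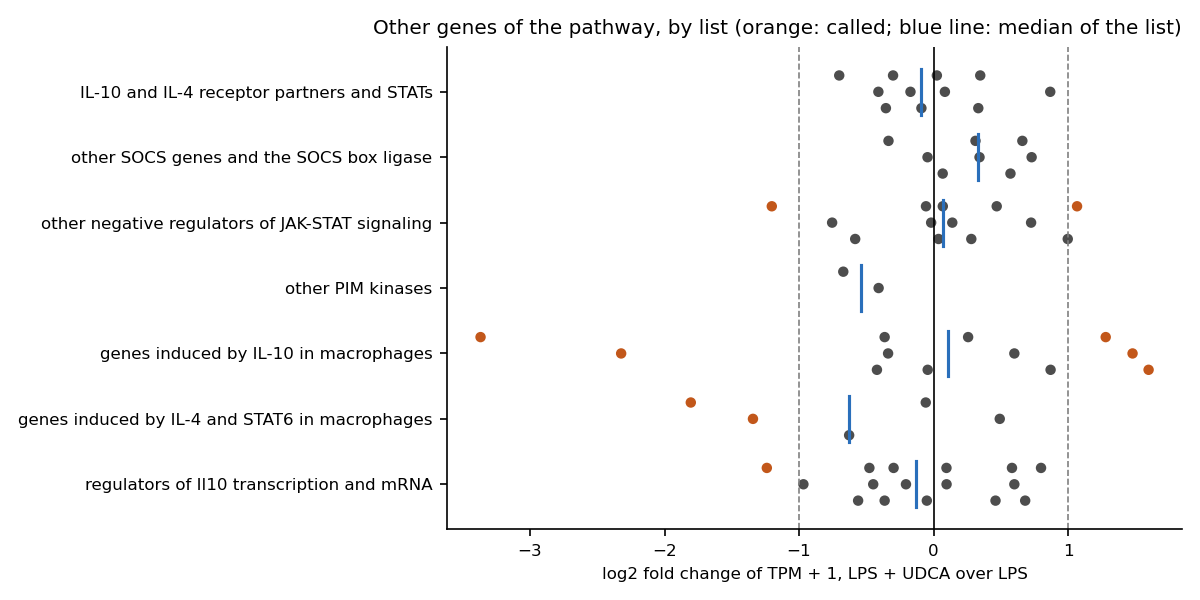
Log2 fold change of TPM + 1, LPS + UDCA over LPS (horizontal axis), of the tested genes of each pathway list, with 1 point per gene, called genes in orange, a blue line at the median of the list and dashed lines at a fold change of 2. Most points lie within the dashed lines, and the lowest, at -3.37, is Il1rn.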

How the data were processed

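RNA of 8 libraries was sequenced on an Illumina HiSeq instrument. The authors deposited 1 table of TPM, a unit inferred from its values, kept to 2 decimals. The submitters' processing notes name Bowtie 0.12.2 and mm10/GRCm38 without a role. The counting program, annotation and strand setting are not given in the sources used here. Columns were matched to samples by description.

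Genes averaging 1 TPM or more over the 8 libraries (11796) entered a fit of log2(TPM + 1) by group in limma 3.58.1 (R 4.3.3; lmFit, eBayes with trend), with Benjamini-Hochberg adjustment. The thresholds were a fold change of 2 and an FDR of 0.05. Single values were compared by the 2-sided exact permutation test in scipy 1.17.1. The fit was tested on simulated data. Positions and words of 31 bases shared between genes are from GENCODE M21 (GRCm38), and promoters from RefSeq.

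The members and lists were chosen with earlier results of these data known. Named were the members, their partners in the ratios, the other SOCS genes, and the 2 highest and 2 lowest called genes of each list. Stat3, Pim2, Ddit4, Spi1, Cd14, Cd68, Csf1r, Ccl22, Clec10a, Tgm2 and Arg1 were named after their values were seen. Shares of the SOCS sum are given without a test.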

Additional observations from a re-analysis of the deposited data

Results flagged for a closer look

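Dixon's ratio, the distance of an extreme library from the next one over the whole spread of its 4 libraries, passed its 95% critical value in 5 of 62 sets of values, where chance gives about 3.1. LPS replicate 1 was low for Il4ra (5.21 TPM, ratio 0.878) and high for the log2 ratio of Socs2 to Cish (0.03, ratio 0.874). LPS + UDCA replicate 3 was low for the log2 ratio of Il10ra to Il10rb (-2.57, ratio 0.914). Among the shares of the SOCS sum, LPS + UDCA replicate 2 was low for Socs5 (10.9%, ratio 0.949) and LPS + UDCA replicate 4 was high for Cish (2.98%, ratio 0.8294).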

How the results depend on the processing

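Of the members, Il10 and Socs3 passed both thresholds in every alternative that was run, with log2 fold changes from -2.57 to -2.41 and from -3.07 to -2.87. Il10ra passed the fold change minimum with a pseudocount of 0.1 (-1.07) or 0.5 (-1.02), with median-of-ratios scaling (-1.03) and with quantile normalization (-1.06). Jak2 fell just short with quantile normalization (0.999), which left 0 members called higher. Without a fold change minimum, 4741 genes were higher and 3807 lower, 3 members were higher and 5 lower, and 23 list genes were higher and 23 lower. The members added were Il10ra (-0.96), Il10rb (0.91), Il4ra (-0.80), Socs1 (-0.59) and Pim1 (0.26). Leaving out each library changed no member's call, but the difference in the log2 ratio of Socs2 to Cish ranged from -0.09 to 0.24. With at least 1 TPM in every library, 4 list genes in place of 6 were called lower, since Egr2 and Irf4 were not tested. With Socs3 left out of the SOCS sum, an alternative chosen after seeing the data, the differences in share were -4.39 for Socs1, -3.37 for Socs7, 1.17 for Socs2, 4.31 for Socs4, 0.314 for Socs5, 0.956 for Socs6 and 1.01 percentage points for Cish. With the replicate number as a block, 1034 genes were called higher and 1000 lower and no member's call changed (Il10 -2.49, Socs3 -2.96, Jak2 1.09), though the adjusted p of Cish from limma was 0.037 (0.034 to 0.18 over the alternatives in which Cish was tested). Without LPS + UDCA replicate 4, or with at least 1 TPM in every library, Cish was under the minimum and was not tested. Deviations of same-numbered libraries correlated by -0.035 to 0.15, so the numbers were not taken to pair the libraries. Counting error is unknown without depth, and differences of Socs2 and Cish were not resolved at their levels.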
